A study of Nannochloropsis oceanica with 6 samples.

Results

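Ribosome biogenesis genes of the marine microalga *Nannochloropsis oceanica* were followed through nitrogen deprivation (ND). The 81 genes were chosen by annotation, as all genes whose pathway field in the deposited tables named the KEGG map of eukaryotic ribosome biogenesis, out of 10569 genes in all. They carried 54 different KEGG orthology numbers, 18 of which were held by several genes, and they lay on 25 chromosomes.

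RNA-seq was run on strain IMET1 in 3 conditions with 2 libraries each. C0 cells were taken at day 0 from nitrogen-replete (NR) log-phase culture under 80 µmol photons per m2 per s. N1 and N2 cells had spent 1 and 2 days, respectively, in medium without nitrogen under 50 µmol photons per m2 per s, so that nitrogen supply, light and the transfer to fresh medium cannot be told apart in any comparison with C0. The study calls the libraries of a group biological replicates, while no label says whether they came from separate cultures, and p-values measure the spread between them. The second N2 library carries no treatment label and was placed by its title. All libraries are bulk RNA, in which fewer cells expressing a gene and less of its RNA per cell cannot be told apart. Values are relative to the rest of each library, so a change in total RNA per cell is not seen.

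Making a ribosome starts in the nucleolus, where the long precursor of ribosomal RNA (rRNA) is transcribed by RNA polymerase I, modified by small nucleolar ribonucleoproteins (snoRNPs) and folded and cut within a large assembly called the small subunit processome. The precursors of both subunits are then remodelled by ATPases, GTPases and kinases, exported to the cytoplasm and finished there. The process consumes much of the nitrogen and energy of a growing cell, and the roles given here for each protein are known from budding yeast or human cells and were assigned to the algal genes through their orthology numbers alone. Where a gene's protein description named a different protein from its orthology number, this is said beside the gene.

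The libraries held between 4875888 and 6523021 estimated counts. The 81 genes together accounted for 1.29% ± 0.01 (SD, n = 2) of all estimated counts in C0, for 0.906% ± 0.011 on day 1 and for 0.848% ± 0.006 on day 2. Both C0 libraries, at 1.30% and 1.29%, lay above the 4 ND libraries, which ranged from 0.843% to 0.914%. Per unit of transcript length the order was the same, with a summed TPM (abundance corrected for transcript length and library depth) of 9324 ± 96 in C0, 7065 ± 74 on day 1 and 6560 ± 19 on day 2. Of the 81 genes, 63 had a C0 level above the median TPM of all genes that were tested, and the median of the set fell from 90.4 TPM in C0 to 64.7 in N1 and 63.1 in N2, while that of the tested genes was 46.6, 46.9 and 51.1 TPM. These sums are descriptions, with no test.

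Most ribosome biogenesis genes were lower under ND. In N1 against C0, 50 of the 80 genes tested fell, 12 rose and 18 did not pass (edgeR quasi-likelihood test, Benjamini-Hochberg adjusted p below 0.05), with a median log2 fold change of -0.43. Of all 9736 genes tested, 70.4% passed in the same comparison, 37.1% falling and 33.3% rising, so that the 62.5% of members that fell lay above the background and the 15% that rose lay below it. In N2 against C0, 55 fell, 8 rose and 17 did not pass, with a median of -0.49 and a background of 69.9% passing, 34.9% lower and 35.0% higher. The medians over all tested genes were -0.04 and 0.01. Falls of at least 2-fold numbered 14 in N1 (background 14.9%) and 22 in N2 (background 10.9%), against rises of that size in 2 and 1 genes (background 13.3% and 13.8%). The comparisons of N1 and N2 with C0 share the C0 libraries, so their values are given side by side and are not independent of each other.

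Between day 1 and day 2 the decline went on in part of the set. In N2 against N1, 35 of 80 genes fell, 5 rose and 40 did not pass, with a median of -0.17 against 0.00 over all tested genes, of which 57.9% passed, 28.5% falling and 29.4% rising. Of all genes called in this comparison 50.8% were higher, a share that became 61.1% when libraries were scaled by their totals only, and under that scaling 27 members fell, 7 rose and their median was -0.07. None of the 35 falls reached 2-fold (background 3.66%), and 1 of the 5 rises did (background 8.7%). The 5 genes that rose encode both midasins, an XRN1, a BMS1 and an NMD3, and this count dropped to 3 without the second N1 library and to 2 without the second N2 library.

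**Figure D1:**
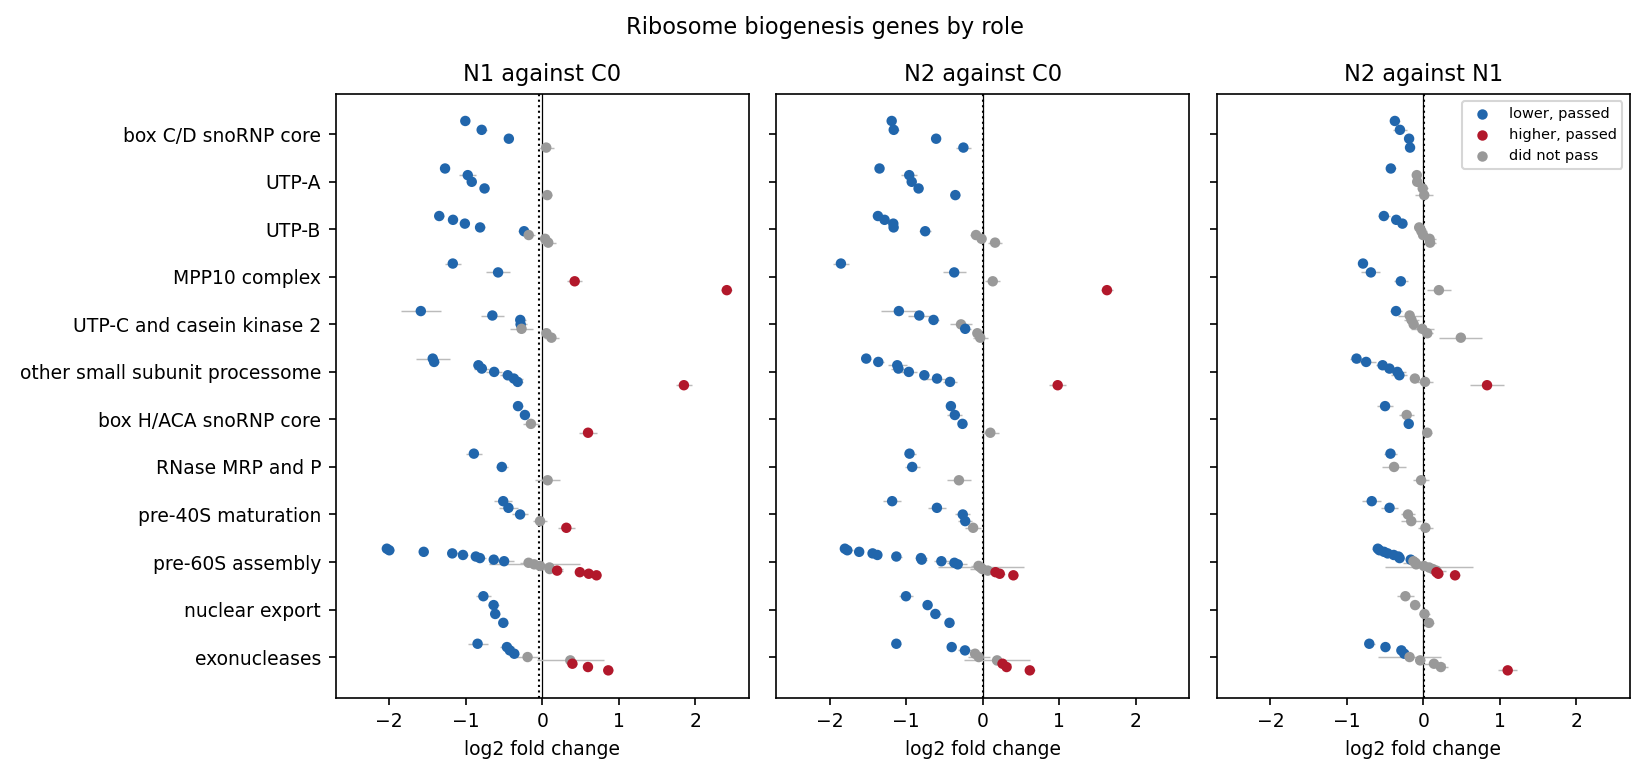
Log2 fold change of each of the 80 tested ribosome biogenesis genes (points, with bars of 1 SE) by role, for N1 against C0, N2 against C0 and N2 against N1. Colour marks genes that passed at an adjusted p below 0.05 and the dotted line is the median of all tested genes. Blue points, 50 and 55 of 80 in the first 2 panels, fill most roles, while red points at the right include MPP10 (2.41 in N1) and EMG1 (1.85 in N1).

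The box C/D snoRNP core, which guides methylation of rRNA and includes the U3 particle needed for the first cuts, had 3 of 4 genes lower in N1 (background 37.1%) and all 4 lower in N2 (background 34.9%). Fibrillarin (NO02G00490), the methyltransferase of the particle, described by its *Arabidopsis* name as a subunit of the Mediator complex, stood at 339 and 308 CPM (counts relative to library size, scaled by TMM) in C0, 188 and 185 on day 1 and 137 and 152 on day 2, so that the 3 groups did not overlap and descended in that order. Its log2 fold change was -0.79 ± 0.07 (SE) in N1 and -1.16 ± 0.07 in N2 against C0. NOP58 (NO11G02870), a scaffold protein of the particle, went from 480 and 477 CPM in C0 to 236 and 240 on day 1 and 208 and 211 on day 2, with log2 fold changes of -1.01 ± 0.05 and -1.19 ± 0.05. The partner scaffold NOP56 (NO14G02400) fell less, by 0.44 ± 0.05 and 0.61 ± 0.05 on the log2 scale. SNU13 (NO05G00930), which binds the RNA of the particle and also a splicing snRNA, was measured at 0.05 ± 0.10 in N1, and its fall by 0.25 ± 0.10 in N2 did not pass without the first C0 library (-0.19) or the second N2 library (-0.13). All 4 genes were lower in N2 than in N1, by 0.17 to 0.37 on the log2 scale. For SNU13 that call was lost without the second N1 library (-0.21) or the second N2 library (-0.18), and for NOP56 without the second N1 library (-0.14). Scaling by library totals left only the fall of fibrillarin from N1 to N2 past the threshold.

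The box H/ACA core, which guides the conversion of uridine to pseudouridine in rRNA, had 2 of 4 genes lower and 1 higher in N1, near the background of 37.1% and 33.3%, and 3 lower in N2 (background 34.9%). Dyskerin (NO01G04150), the pseudouridine synthase itself, was at 323 and 317 CPM in C0, 272 and 275 on day 1 and 241 and 239 on day 2. These 3 groups were fully separated, with log2 fold changes of -0.23 ± 0.05 and -0.42 ± 0.05. Dyskerin's step from N1 to N2 (-0.19 ± 0.05) passed, but not with scaling by library totals (-0.09) or in limma on FPKM (-0.11). GAR1 (NO11G02020) was at -0.15 ± 0.10 in N1, where it did not pass, and fell by 0.37 ± 0.10 in N2, and the step between the days did not pass either. Of a neighbouring pair of genes for NHP2, an RNA-binding subunit, NO04G03690 fell by 0.32 ± 0.07 and 0.27 ± 0.06. The other, NO04G03700, had 44.5 and 46.1 CPM in C0, 61.1 and 76.5 on day 1 and 47.3 and 49.8 on day 2. It rose in N1 by 0.60 ± 0.11 and was at 0.10 ± 0.11 in N2, where it did not pass.

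The building blocks of the small subunit processome were mostly lower. UTP-A binds the start of the rRNA precursor and joins first. Its largest subunit, UTP10 (NO20G00480, HEATR1 in human), was at 686 and 708 CPM in C0, 303 and 274 on day 1 and 276 and 270 on day 2. All 4 ND libraries were below both C0 libraries, and the log2 fold change was -1.27 ± 0.05 and -1.35 ± 0.05. UTP15 (NO09G03070), UTP17 (NO13G01150) and UTP5 (NO12G02310) fell by 0.75 to 0.97 on the log2 scale in N1 and by 0.84 to 0.96 in N2. UTP4 (NO15G01970) differed from these in timing, with 125 and 132 CPM in C0, 138 and 131 on day 1 and 98.2 and 102 on day 2. Its groups C0 and N1 overlapped, and its fall by 0.36 ± 0.07 passed in N2 only, where it was also below N1 (-0.42 ± 0.07).

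UTP-B, the next block to join, held 5 genes that fell in both comparisons and 3 that passed in neither. Of all tested genes, 37.1% fell in N1 and 34.9% in N2. UTP12 (NO23G00970), UTP13 (NO06G01570), UTP21 (NO03G03820) and the PWP2 gene NO21G00540 all fell in both comparisons, with log2 fold changes between -1.35 and -0.81 in N1 and between -1.37 and -1.17 in N2. UTP13, the highest in CPM of these 4, went from 436 and 429 CPM in C0 to 191 and 194 on day 1 and 193 and 192 on day 2, so that the 4 ND libraries were alike. The other PWP2 genes did not pass in either comparison, with values of 0.08 ± 0.10 and 0.16 ± 0.09 for NO17G01870, described as the nuclear distribution protein PAC1, and -0.18 ± 0.08 and -0.09 ± 0.08 for NO21G02510. NO13G02230, assigned to UTP18 but described as a subunit of the AP-3 vesicle adaptor, was at 599 to 632 CPM in all 6 libraries and also did not pass. Its neighbour NO13G02240, assigned to UTP18 as well, had no counts in any library, which allows up to 0.615 CPM in the shallowest one (3 counts, for counting error only), and was the single member left out of the tests. NO08G00020, assigned to UTP6 but described as a metabolite repair dehydratase, fell by 0.24 ± 0.07 in N1 and by 0.75 ± 0.08 in N2, and the N1 call was lost without the first C0 library (-0.16) or the second N1 library (-0.19).

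In the MPP10 complex, which brings the U3 particle and the rRNA precursor together, members moved in opposite directions. The neighbours NO01G03970 and NO01G03980 are both annotated as MPP10. For neither were the estimated counts whole in every library, so both were left out of the fit restricted to whole counts. NO01G03970 was at 43.1 and 46.1 CPM in C0, 231 and 244 on day 1 and 134 and 141 on day 2. This was the strongest rise of any member in both comparisons with C0, 5.32-fold in N1 (log2 2.41 ± 0.07, edgeR adjusted p = 5.38e-13) and 3.08-fold in N2 (1.62 ± 0.07). NO01G03980 was at 78.0 and 77.0 CPM in C0, 32.9 and 36 on day 1 and 22.9 and 19.9 on day 2, which is a fall by 1.17 ± 0.10 and 1.86 ± 0.11 on the log2 scale. Per unit of length the 2 genes were at 14.1 and 94.0 TPM in C0 and at 75.2 and 67.2 TPM in N1, so that their order in TPM turned. The N1 fall of NO01G03980 was smaller in TPM than in CPM. The partner IMP4 (NO05G01340) rose in N1 by 0.42 ± 0.10 and was at 0.13 ± 0.09 in N2. IMP3 (NO19G00480) fell by 0.58 ± 0.16 and 0.37 ± 0.15, but the first call was lost without the second C0 library (-0.40) or the second N1 library (-0.38) and the second without the second C0 library (-0.19) or the first N2 library (-0.28).

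UTP-C is the block that contains casein kinase 2, an enzyme with many other substrates in the cell. Of the 7 genes of this role, 4 fell and 0 rose in each comparison with C0 (background 37.1% lower in N1 and 34.9% in N2). UTP22 (NO05G05330) fell by 0.29 ± 0.07 in N1 and 0.64 ± 0.07 in N2, while RRP7 (NO05G03730) did not pass. All 3 genes for the regulatory beta subunit of the kinase fell in both comparisons, the largest fall being that of NO07G02000, from 20.1 and 17.6 CPM in C0 to 8.13 and 4.26 on day 1 and 8.72 and 8.86 on day 2 (log2 -1.59 ± 0.26 and -1.10 ± 0.24). For NO16G01270 the N2 call (-0.23 ± 0.07) was lost without the first C0 library (-0.18) or the first N2 library (-0.20). Neither its N1 nor its N2 call passed in DESeq2 (adjusted p = 0.092 and 0.111). The N2 call also did not pass in limma on FPKM (adjusted p = 0.208). Neither gene for the catalytic alpha subunit passed: NO06G00930 was at 132 and 134 CPM in C0 and between 126 and 140 in the ND libraries.

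Among the remaining processome factors, 8 of 9 genes fell in both comparisons with C0 and 1 rose. The background was 37.1% lower and 33.3% higher in N1, and 34.9% lower and 35.0% higher in N2. The gene that rose was EMG1 (NO10G01790), a methyltransferase that modifies one pseudouridine of the small-subunit rRNA in yeast. It was at 27.0 and 22.8 CPM in C0, 87.0 and 92.7 on day 1 and 50.2 and 47.8 on day 2. The groups were far apart, and the rise was 3.61-fold in N1 (log2 1.85 ± 0.11, edgeR adjusted p = 8.95e-10) and 1.97-fold in N2 (0.98 ± 0.11). In contrast, all 3 genes for NAT10, the enzyme that acetylates cytidines of the same rRNA, fell. NO12G01780 was at 303 and 305 CPM in C0, 122 and 106 on day 1 and 108 and 103 on day 2 (log2 -1.41 ± 0.06 and -1.52 ± 0.06), and the neighbours NO15G00770 and NO15G00780 fell by 0.63 ± 0.11 and 0.79 ± 0.10 in N1 and by 0.97 ± 0.11 and 1.10 ± 0.09 in N2.

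UTP14 (NO03G05320), which activates a helicase that frees U3 from the rRNA, stepped down on each day, from 136 and 127 CPM through 74.3 and 72.9 to 50.2 and 51.7. Its log2 fold change was -0.83 ± 0.07 and -1.37 ± 0.07. UTP24 (NO27G01560), the nuclease that makes early cuts in the precursor, was at 45.2 and 42.5 CPM in C0, 32.5 and 35.4 on day 1 and 21.1 and 19.3 on day 2. Its N2 difference was -1.12 ± 0.12, and its N1 difference of -0.37 ± 0.12 did not pass without the first C0 library (-0.33) or the first N1 library (-0.31). RCL1 (NO12G02430), the partner of the GTPase BMS1, fell by 0.45 ± 0.10 and 0.43 ± 0.09. Of the neighbouring BMS1 genes, NO05G00460 fell by 0.32 ± 0.07 and 0.76 ± 0.07. NO05G00450, at 7.93 to 25.7 CPM over the libraries, fell by 1.43 ± 0.22 in N1, was 0.83 ± 0.23 higher in N2 than in N1, and differed from C0 by -0.60 ± 0.19 in N2. The N2 call of NO05G00450 against C0 was lost without the second C0 library (-0.40) or the first N2 library (-0.42), and its rise from N1 to N2 was lost without the second N2 library (0.63).

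RNase MRP cuts the precursor between the parts that become the small and large subunits, and shares most of its proteins with RNase P, which matures transfer RNA. POP1 (NO12G03590) was at 96.9 and 99.0 CPM in C0, 69.4 and 66.3 on day 1 and 48.6 and 52.3 on day 2, a fall by 0.53 ± 0.08 and 0.96 ± 0.08 on the log2 scale. POP5 (NO01G01790) fell by 0.89 ± 0.10 and 0.92 ± 0.10. RPP30 (NO15G00870) was at 15.7 to 23.7 CPM and did not pass.

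Of the 5 genes for late small-subunit maturation, 3 fell and 1 rose in N1 (background 37.1% and 33.3%) and 4 fell in N2 (background 34.9%). Of the atypical kinase RIO1, the gene NO23G00940 was at 101 and 112 CPM in C0, 83.5 and 65.9 on day 1 and 52.3 and 41.4 on day 2, with log2 fold changes of -0.51 ± 0.11 and -1.19 ± 0.12. The other RIO1 gene, NO07G04510, passed in N2 alone (-0.23 ± 0.09), and without any 1 of the 4 libraries compared, at -0.26 to -0.20, it did not pass. RIO2 (NO20G01740), a related kinase, fell by 0.44 ± 0.13 and 0.60 ± 0.12, the first not without the first N1 library (-0.29). NOB1 (NO15G02560), the nuclease that makes the last cut of the small-subunit rRNA, was at 49.2 and 52.7 CPM in C0, 43.2 and 40.1 on day 1 and 43.9 and 41.1 on day 2. Both C0 libraries lay above all ND libraries, while N1 and N2 overlapped. NOB1's falls by 0.29 ± 0.10 and 0.26 ± 0.10 were each lost without 1 library (the second of C0, -0.24 and -0.21, the second of N1, -0.24, or the second of N2, -0.22). AK6 (NO24G02380), an ATPase that acts near NOB1 in yeast, rose in N1 by 0.31 ± 0.11, a call lost without the second C0 library (0.27) or the first N1 library (0.29).

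**Figure D2:**
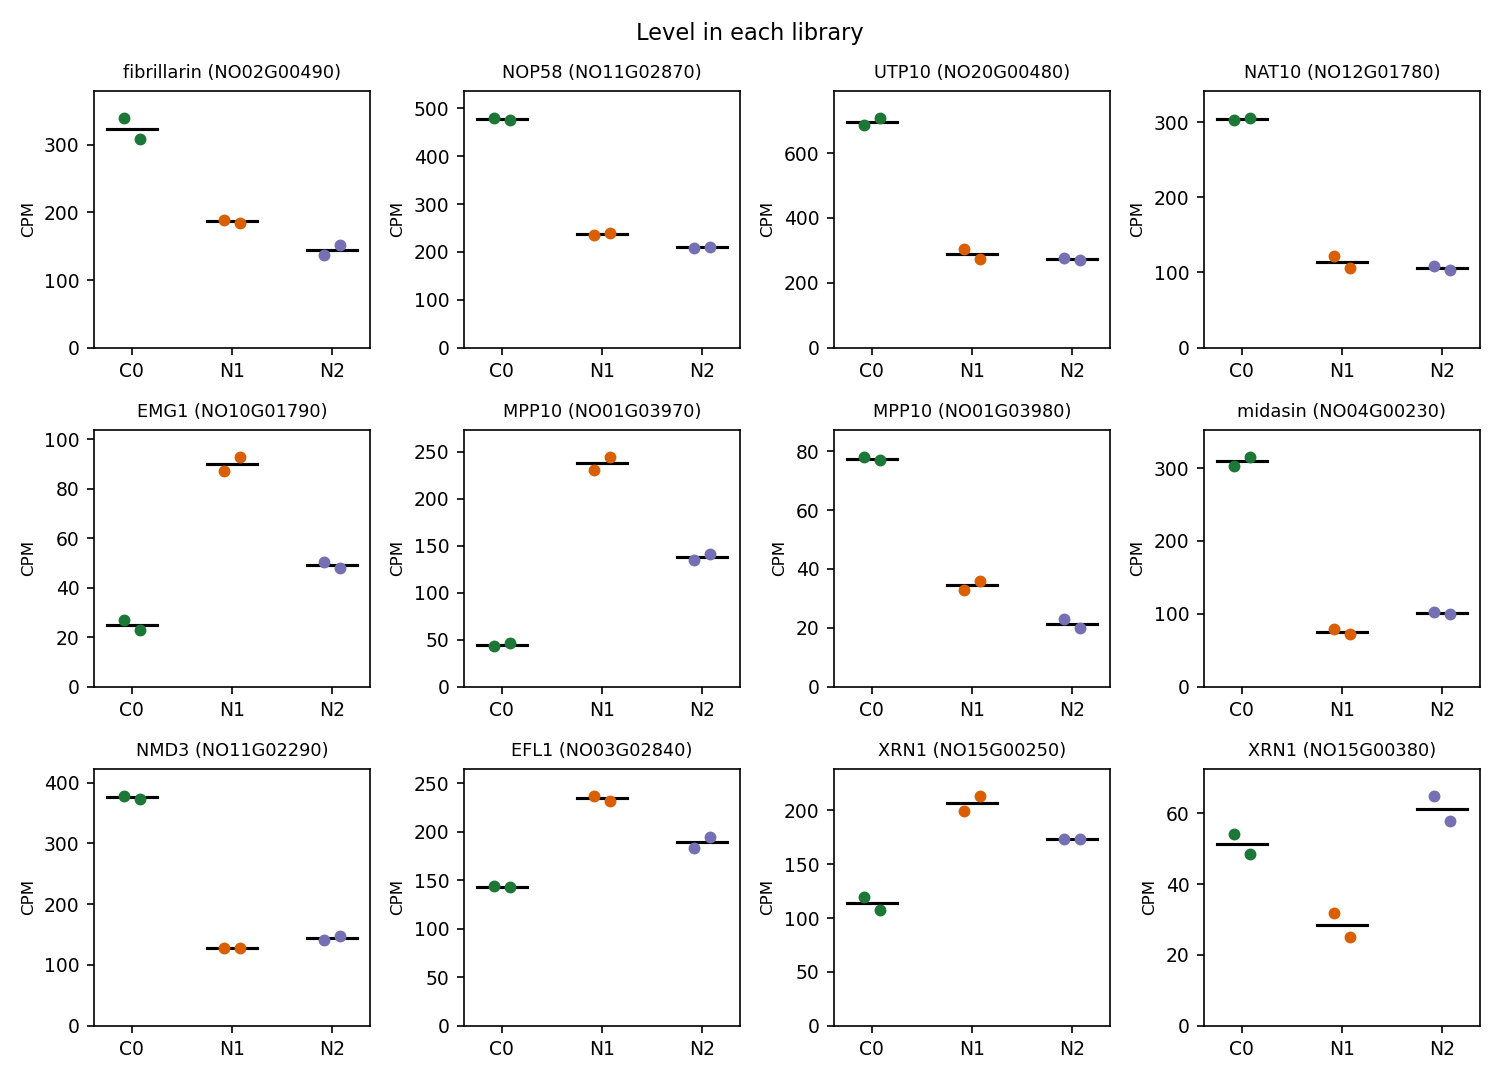
Level in each library, in TMM-scaled CPM on linear axes from 0, for 12 genes (points are libraries, bars are group means, n = 2). In fibrillarin, NOP58, UTP10, NAT10, the MPP10 gene NO01G03980, midasin and NMD3 both C0 points lie above all ND points, whereas in EMG1, the MPP10 gene NO01G03970, EFL1 and the XRN1 gene NO15G00250 they lie below them.

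Large-subunit assembly held the deepest falls of N1. Of its 18 genes, 9 fell and 4 rose in N1 (background 37.1% and 33.3%), and 11 fell and 3 rose in N2 (background 34.9% and 35.0%). Midasin (Rea1 in yeast) is a very large AAA ATPase that strips early assembly factors from the precursor, and 2 neighbouring genes carry its name. NO04G00230 was at 303 and 315 CPM in C0, 78.5 and 72.5 on day 1 and 102 and 99.5 on day 2. NO04G00240 was at 395 and 384 CPM in C0, 99.3 and 95.3 on day 1 and 111 and 112 on day 2. In both genes the 3 groups were separate, with N1 lowest and N2 slightly above it. NO04G00230 was 4.09-fold lower in N1 (log2 -2.03 ± 0.06, edgeR adjusted p = 6.85e-13) and 3.07-fold lower in N2 (-1.62 ± 0.06). NO04G00240 was 4.00-fold lower in N1 (-2.0 ± 0.06, edgeR adjusted p = 3.71e-13) and 3.49-fold lower in N2 (-1.80 ± 0.05). The rise from N1 to N2 was 0.42 ± 0.07 for NO04G00230 and 0.20 ± 0.06 for NO04G00240, the latter not past the threshold without the second N1 library (0.16) or the second N2 library (0.18).

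Among the GTPases of the large subunit, both NUG1 genes, NUG2 and 1 of the 2 NOG1 genes fell in both comparisons with C0. The neighbours of the NUG1 annotation went from 320 and 311 CPM in C0 to 158 and 149 on day 1 and 155 and 132 on day 2 (NO02G00790, log2 -1.04 ± 0.07 and -1.13 ± 0.07), and from 155 and 161 to 69.0 and 70.5 and then to 46.8 and 45.5 CPM (NO02G00810, -1.18 ± 0.07 and -1.77 ± 0.07). NOG1 (NO11G03380) was at 393 and 403 CPM in C0, 214 and 222 on day 1 and 139 and 155 on day 2, a fall by 0.87 ± 0.06 and 1.44 ± 0.06. The other gene annotated as NOG1, NO09G01480, had overlapping groups, at 42.6 to 54.6 CPM over all libraries, and did not pass. NUG2 (NO01G01020) fell by 0.82 ± 0.08 and 0.81 ± 0.07. LSG1 (NO03G01610), the GTPase that releases NMD3 from the cytoplasmic particle in yeast, was at 57.8 and 55.5 CPM in C0, 51.5 and 59.7 on day 1 and 39.4 and 38.4 on day 2, and fell in N2 only (-0.54 ± 0.10). RBM28 (NO15G01170), the human counterpart of yeast Nop4, fell by 0.63 ± 0.07 and 0.80 ± 0.06. Its difference between N2 and N1, -0.16 ± 0.07, did not pass without either C0 library (-0.16 each), the second N1 library (-0.10) or the first N2 library (-0.10).

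NMD3, the adaptor through which the large subunit leaves the nucleus, was annotated to a high and a low gene. NO11G02290 was at 378 and 374 CPM in C0, 128 and 129 on day 1 and 141 and 148 on day 2, a 2.93-fold fall in N1 (log2 -1.55 ± 0.06) and a 2.60-fold fall in N2 (-1.38 ± 0.05). Its rise from N1 to N2, 0.17 ± 0.06, was not past the threshold without the first N1 library (0.17), the second N1 library (0.17) or the second N2 library (0.13). NO05G04710 was at 21.2 to 28.9 CPM, with overlapping groups, and did not pass. The export receptor XPO1 and the GTPase RAN drive export of both subunits and of many other cargoes. All 4 of their genes fell in both comparisons with C0 (background 37.1% in N1 and 34.9% in N2). The XPO1 neighbours NO05G03370 and NO05G03380 fell by 0.64 ± 0.08 and 0.61 ± 0.07 in N1 and by 0.62 ± 0.07 and 0.72 ± 0.06 in N2, and NO11G02440, assigned to XPO1 but described as Exportin-6-A, fell by 0.77 ± 0.10 and 1.00 ± 0.10. RAN (NO02G01940) had the highest TPM of the set in C0, 702 ± 25, and went from 171 and 163 CPM to 121 and 113 in N1 and 122 and 124 in N2. It fell by 0.51 ± 0.06 and 0.44 ± 0.06, and none of the 4 export genes passed in N2 against N1.

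The factors of the last cytoplasmic steps moved in both directions. EFL1 (NO03G02840), the GTPase that together with SBDS removes a blocking factor from the new large subunit, was at 144 and 143 CPM in C0, 237 and 232 on day 1 and 184 and 195 on day 2. All ND libraries were above both C0 libraries, by 0.71 ± 0.06 in N1 and 0.40 ± 0.06 in N2 on the log2 scale. SBDS (NO04G01180), in contrast, was at 43.1 and 43.8 CPM in C0, 27.4 and 34.3 on day 1 and 34.4 and 34.9 on day 2, a fall by 0.50 ± 0.13 and 0.33 ± 0.12, the latter lost without any 1 of the 4 libraries compared (-0.34 to -0.31).

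DRG1 (AFG2 in yeast) is an AAA ATPase that starts this cytoplasmic maturation by releasing a shuttling factor. Its neighbours NO19G01920 and NO19G01940, described after the human protein SPATA5, rose in N1 by 0.49 ± 0.06 and 0.61 ± 0.07, from 142 and 140 to 197 and 198 CPM and from 79.2 and 81.6 to 122 and 124 CPM. In N2 they were 0.17 ± 0.06 and 0.22 ± 0.07 above C0. Those N2 calls were lost for NO19G01920 without the second C0 library (0.16) or the second N2 library (0.12), and for NO19G01940 without the first C0 library (0.20) or the second N2 library (0.17). NO09G00470, assigned to DRG1 but described as a CDC48 homolog, was 0.19 ± 0.08 higher in N1, which did not pass without any 1 of the 4 libraries compared (0.17 to 0.22). RIX7 (NVL in human), an AAA ATPase of the nucleolus, did not pass in N1. Its gene NO03G05380 fell in N2 by 0.37 ± 0.10, a call lost without the first N2 library (-0.25), and its neighbour NO03G05370 had 1.07 to 3.57 CPM.

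The 9 exonuclease genes moved in both directions, with 3 higher and 4 lower in N1 and 3 higher and 3 lower in N2, shares close to the background of 33.3% higher and 37.1% lower in N1 and 35.0% and 34.9% in N2. XRN1, which in yeast and human mainly degrades messenger RNA in the cytoplasm and is listed on the map beside its nuclear relative, was annotated to 3 genes. NO09G02280 was at 370 and 387 CPM in C0, 588 and 557 on day 1 and 480 and 459 on day 2 (log2 0.60 ± 0.05 and 0.31 ± 0.05). NO15G00250 was at 120 and 107 CPM in C0, 200 and 213 in N1 and 174 in both N2 libraries (0.86 ± 0.07 and 0.61 ± 0.06). In both genes the order was C0, N2, N1 from low to high, with no overlap.

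The third XRN1 gene had the reverse order on day 1. NO15G00380, described as a homolog of XRN2, was at 54.2 and 48.4 CPM in C0, 31.7 and 25.1 on day 1 and 64.8 and 57.8 on day 2. It fell by 0.85 ± 0.13 in N1 and was 0.26 ± 0.11 above C0 in N2, the only member with passing differences of opposite sign, and it rose by 1.10 ± 0.12 from N1 to N2, the only change of at least 2-fold between the ND days. The N2 difference from C0, with an edgeR adjusted p of 0.0493, was not past the threshold without the second C0 library (0.18) or the first N2 library (0.17), with DESeq2 size factors, in DESeq2 or in limma on FPKM, with adjusted p-values of up to 0.276, so that the opposite signs rest on a borderline call. XRN2 (NO07G01750), the nuclear enzyme that trims the ends of large-subunit rRNA, was at 188 and 170 CPM in C0, 234 and 236 on day 1 and 169 and 165 on day 2. It rose in N1 (0.39 ± 0.06), and in N2 it did not pass against C0 (-0.10 ± 0.06).

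Genes annotated as REX1, an exonuclease that trims small stable RNAs in yeast, fell or did not pass. Their descriptions name related exonucleases (GOR and small RNA degrading nucleases). NO18G01060 was at 249 and 220 CPM in C0, 177 and 172 on day 1 and 104 and 110 on day 2, the deepest fall of this role in N2 (log2 -0.42 ± 0.07 and -1.13 ± 0.07). Its neighbour NO18G01050 fell by 0.46 ± 0.10 in N1, and its N2 difference of -0.23 ± 0.09 was lost without the first C0 library (-0.12) or the second N2 library (-0.18). NO16G01450 fell by 0.37 ± 0.06 and 0.41 ± 0.06. NO25G01510 and NO25G01520 did not pass, the latter with only 3.57 to 11.1 CPM.

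Summed TPM by role can be compared between roles. The pre-60S factors went from 1819 ± 6 TPM in C0 to 1160 ± 15 in N1 and 1102 ± 4 in N2, and the box C/D core from 1579 ± 41 to 1064 ± 23 and 957 ± 10. UTP-A went from 636 ± 11 to 373 ± 20 and 376 ± 10. In 9 of the 12 roles both C0 libraries lay above all ND libraries, and the other 3 were as follows. The box H/ACA core was at 564 ± 4, 564 ± 8 and 516 ± 19 TPM, and the exonucleases at 548 ± 32, 589 ± 10 and 537 ± 12 TPM, so that C0 and N2 overlapped for the exonucleases and C0 and N1 for the box H/ACA core. In the MPP10 complex, at 346 ± 30, 377 ± 22 and 309 ± 13 TPM, C0 and N1 overlapped too.

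Many members were neighbours on a chromosome with the same orthology number. Counting genes with at most 1 identifier between them, 12 such pairs held 24 of the 81 genes (29.6%). Of 4255 other genes with a single orthology number, 563 (13.2%) were in such pairs. Whether the 2 genes of a pair are separate copies or pieces of one gene was not tested. Both genes of the MPP10 and NHP2 pairs had estimated counts that were not whole in at least 1 library. They were therefore absent from the fit restricted to whole counts. The same held for the NUG1, BMS1, XPO1, DRG1 and REX1 pairs. In N1 against C0 both genes fell in 6 pairs, both rose in 1 (DRG1), they moved in opposite directions in 2 (MPP10 and NHP2), at least 1 gene did not pass in 2 (RIX7 and the REX1 genes NO25G01510 and NO25G01520), and UTP18 gave no value. In N2 against C0 both fell in 6, both rose in 1, MPP10 alone moved in opposite directions, and 3 were not both called. Of all single genes tested, 37.1% were lower and 33.3% higher in N1, and 34.9% and 35.0% in N2. Directions were not counted for the 292 pairs among the other genes. Whether the patterns of the member pairs are unusual for neighbours was therefore not tested. Library preparation did not keep the strand, so where neighbours overlap on opposite strands their reads cannot be told apart.

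**Figure D3:**
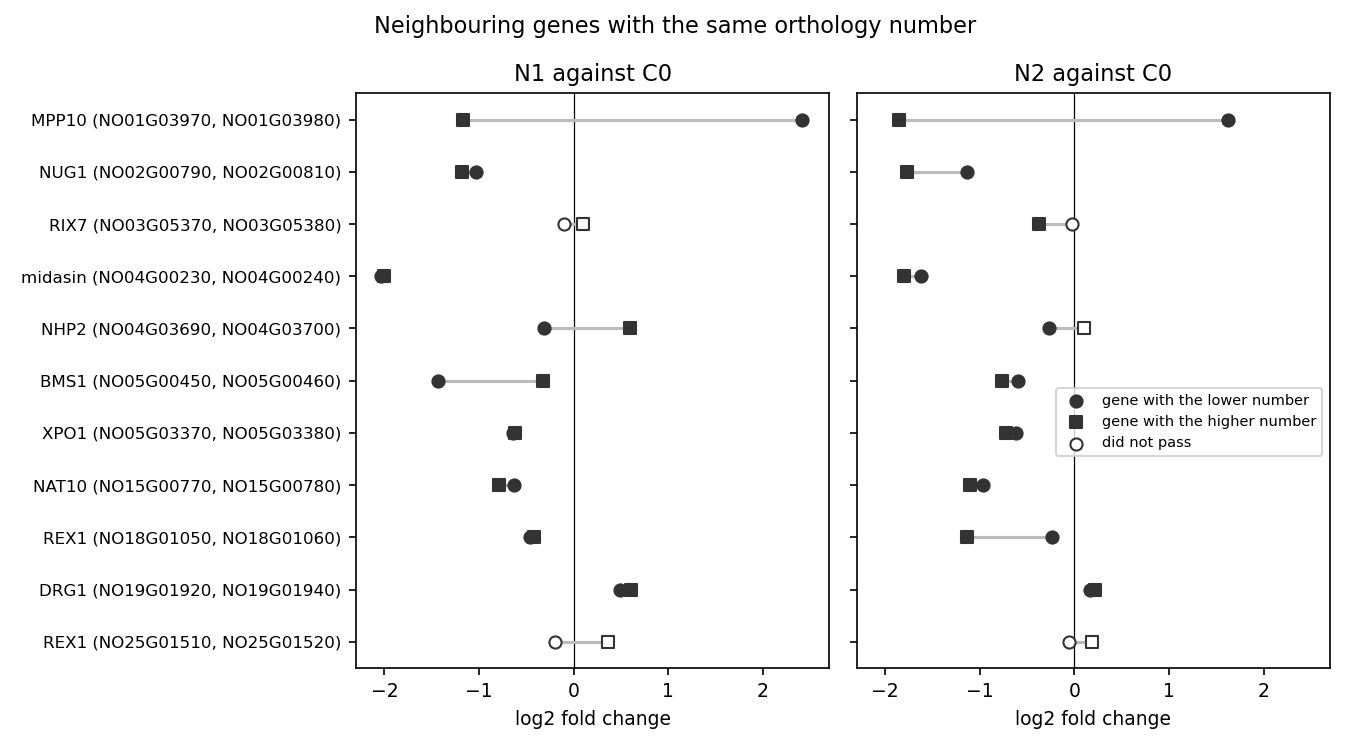
Log2 fold change of both genes of each neighbouring pair with the same orthology number (circle and square), in N1 and N2 against C0, with open symbols for genes that did not pass. In MPP10 the symbols lie at 2.41 and -1.17 in N1, while in midasin they lie at -2.03 and -2.0.

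Gene sets that work beside these factors also had negative medians in N1 and N2 against C0, but of different sizes on each day. The 76 cytosolic ribosomal protein genes fell in 73 cases in N1 and 69 in N2, with medians of -1.18 and -0.60, and 72 of them rose from N1 to N2 (median 0.60), whereas 35 of the 80 ribosome biogenesis genes fell from N1 to N2 (median -0.17). Of 38 other assembly factors that the map does not list, 24 fell and 3 rose in N1 (median -0.48), 30 fell and 2 rose in N2 (median -0.79), and 22 fell and 3 rose between N1 and N2 (median -0.28). Of 19 genes of RNA polymerases I and III, which transcribe the ribosomal RNAs (the initiation factor RRN3 and subunits shared with RNA polymerase II included), 10 fell and 2 rose in N1 and 11 fell and 2 rose in N2, with medians of -0.61 and -0.46. Of 13 genes listed under the RNA exosome, which trims and degrades rRNA precursors (the MTR4 helicase and a relative of DIS3 that is not an exosome subunit included), 8 fell and 1 rose in N1 and 9 fell and 1 rose in N2, with medians of -0.40 and -0.52. Aminoacyl-tRNA biosynthesis was more mixed. In N1, 28 of 59 genes were lower and 20 higher (median -0.20), and in N2 34 were lower and 9 higher (median -0.37). The 33.9% that were higher in N1 lay near the background of 33.3%. This list included genes described as other proteins, such as alternative oxidases and a histidine ammonia-lyase. The backgrounds given above for all genes apply to these counts, and the differences between sets were not tested.

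**Figure D4:**
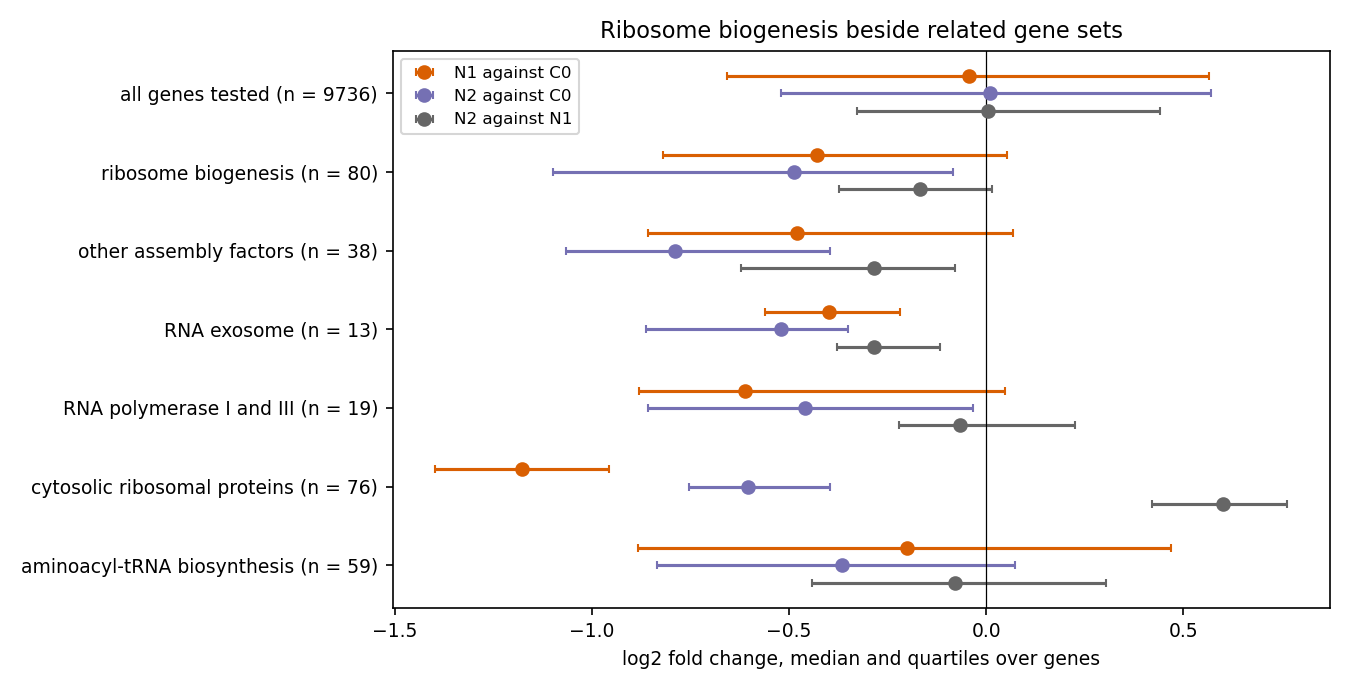
Median log2 fold change (points) and quartiles over genes (bars) for ribosome biogenesis, related gene sets and all tested genes in the 3 comparisons. Ribosomal protein genes lie at -1.18 in N1 and 0.60 in N2 against N1, while ribosome biogenesis genes lie at -0.43, -0.49 and -0.17 in N1, N2 and N2 against N1.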

How the data were processed

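The authors prepared strand-nonspecific, poly-A selected paired-end libraries, and their notes name Trim Galore, STAR, Picard, featureCounts, StringTie and edgeR without versions. Reads were placed on the IMET1 genome of the NanDeSyn database. The deposited tables give per library, for each gene, an estimated count (expected count, not always whole), TPM and FPKM. The authors' comparison tables, which hold fold changes and p-values, were not used.

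Estimated counts were rounded, which moved a library's total by at most 19. Genes that reached 1 CPM in 2 or more libraries (9736 of 10569) were kept, scaled by TMM (factors 0.962 to 1.04) and fitted to the 3 groups with all 6 libraries in edgeR 4.0.16 (quasi-likelihood test, R 4.3.3), with Benjamini-Hochberg adjustment over all tested genes and a threshold of 0.05. The SE of a log2 fold change was derived from its F statistic. Both N2 libraries (6523021 and 6379149 estimated counts) were deeper than the C0 and N1 libraries (4875888 to 5202554). Alternatives were other scalings, filters and tests (DESeq2 1.42.0, limma 3.58.1 on the deposited FPKM plus 1), a replicate block and leaving out each library, and the code was tested on simulated data.

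The members and gene lists were chosen with earlier results of these data known. The genes named were, per comparison, the 5 strongest in each direction whose mean reached 10 CPM, the smallest and largest adjusted p per role in N1, listed factors irrespective of values, members of opposite sign or untested, and the 3 highest and 3 lowest in TPM. The other members were named to complete each role after their values were seen. Sequences were not used here.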

Additional observations from a re-analysis of the deposited data

Results flagged for a closer look

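For 40 of the 80 tested ribosome biogenesis genes the difference from C0 on day 1 differed from that on day 2, by the direct test of N2 against N1 (edgeR quasi-likelihood test). The background for that comparison was 57.9% of all tested genes. The XRN1 gene NO15G00380 was 1.10 higher on the log2 scale in N2 than in N1. It fell in N1 against C0, and its rise in N2 against C0 was borderline (0.26, edgeR adjusted p = 0.0493) and was lost under 5 alternatives.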

How the results depend on the processing

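With 2 libraries per group, members at low CPM were measured least precisely. No called difference of a single member changed sign: of 240 differences (165 called), 190 were on the same side of the threshold under every alternative, and among 3510 alternative values 121 calls were lost and 31 gained. DESeq2 accounted for 24 of the lost calls, limma for 17 and scaling by library totals for 14. Beside most genes above, only losses from leaving out a library are given. Restricting the fit to genes with whole counts left 52 members, of which 38 were called in N1 against C0 (5 higher, 33 lower), 41 in N2 against C0 (3 higher) and 26 in N2 against N1 (3 higher, 23 lower), since fewer members were tested. Requiring a 2-fold change left 16 (2 higher, 14 lower), 23 (1 higher, 22 lower) and 1 (1 higher, 0 lower). DESeq2 called 5 higher in N2 against C0 and 3 higher in N2 against N1. Taking 1 gene per orthology number (54 genes, chosen after seeing the data) gave 3 and 2 higher in those comparisons. Leaving out 1 library gave 58 to 62, 56 to 63 and 34 to 40 members called, of which 10 to 12, 6 to 8 and 2 to 6 were higher and 47 to 50, 49 to 55 and 32 to 35 lower. Replicate numbers did not pair the libraries, since same-numbered libraries had deviations correlated at -0.02 (C0 and N1), 0.01 (C0 and N2) and -0.05 (N1 and N2), and the replicate block gave 62, 61 and 42 called members against 62, 63 and 40 without it.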
